A study of Mus musculus with 27 samples.

Results

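The genes described are 9 ligands of the CXC chemokine family, Ppbp (platelet basic protein), Pf4 (platelet factor 4), Cxcl1, Cxcl2, Cxcl3, Cxcl9, Cxcl10, Cxcl14 and Cxcl16, together with the receptor gene Cxcr4, 10 of the 50559 genes counted. They were chosen by name from a list drawn up with their levels in these libraries in view. Their levels are therefore given as a description, and the number of them past the threshold used for all genes is given once per comparison with nothing read from it. CXC chemokines are small secreted proteins that bind heparan sulphate and signal through receptors coupled to G proteins to guide leukocytes. Ligands with a glutamate-leucine-arginine motif ahead of the CXC cysteines attract neutrophils and promote vessel growth, while the interferon-inducible ligands attract activated T and NK cells. Ppbp and Pf4 are best known as proteins of platelet alpha granules, and macrophages are a known source of Cxcl2, Cxcl10 and Cxcl16.

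The libraries came from bone marrow-derived macrophages of C57BL/6 mice, labelled female and aged 3 to 4 months, either wild type (WT) or lacking TRAP1, a chaperone of the mitochondrial matrix (TRAP1 KO). Marrow cells were differentiated for 4 days and then 3 further days in medium holding L929-conditioned medium. The resulting Mφ cells are called M0 in the labels, and M2 cells had 10 ng/ml IL-4 for 24 h in addition. Both were then kept for 48 h in DMEM (control medium) or in medium conditioned by malignant peripheral nerve sheath tumour cells (MPNST-CM), with a change of medium after 24 h. The labels do not say which tumour cell line conditioned the medium. Crossing cell state, medium and genotype gave 8 groups of 3 libraries in batch 1, 24 libraries in all, and 3 further libraries are labelled batch 2. RNA was counted from its 3′ end (QuantSeq), so no value was scaled by gene length, and levels are compared between groups for 1 gene at a time. Batch 1 libraries held 7037684 to 9089792 counts, so that 3 counts, taken as the limit of detection, correspond to 0.323 to 0.450 CPM (counts normalised to a common library size, with TMM scaling). That limit covers counting error only. The labels do not say whether the 3 libraries of a group came from separate animals, so errors and p-values measure the spread between these libraries (n = 3 per group throughout). In bulk RNA, fewer cells expressing a gene and less RNA per cell cannot be told apart.

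Before the results, the labels were checked against the counts. Trap1 had 0 counts in all 12 batch 1 KO libraries and 83 to 144 in the 12 WT libraries. Xist, the RNA of the inactive X chromosome, had 2079 to 4010 counts in the batch 1 WT libraries and 0 to 9 in the batch 1 KO libraries, although the labels give female mice for both. In batch 2 the libraries labelled KO M2 in control medium and in MPNST-CM had Trap1 at 2 and 0 counts and Xist at 4220 and 2962 counts, within or above the range of the batch 1 WT libraries. Genotype and Xist status cannot be told apart in batch 1, and its part in any KO against WT comparison was not tested. Macrophage markers were abundant in every group, with a summed level of 8734 to 11068 CPM over 8 genes, all detected, and Lyz2 as the most abundant at 2454 to 4041 CPM. Retnla, a gene induced by IL-4, averaged 1670 and 1893 CPM in WT and KO M2 cells in control medium and 0.483 and 1.52 CPM in the Mφ cells beside them. In batch 2 its levels were far from those of batch 1 under the same labels, with 24.0 CPM in the library labelled KO M2 in control medium (batch 1 libraries 1760 to 2071) and 4462 CPM in the library labelled KO M2 in MPNST-CM (213 to 236). Chil3, another IL-4 gene, was at 1.82 CPM in the first (254 to 311) and 498 CPM in the second (110 to 123).

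By rank correlation with the group means, each of the 24 batch 1 libraries was closest to its own group, against 1 of the 3 in batch 2. The batch 2 library labelled KO M2 in MPNST-CM lay closer to WT M2 in control medium (Spearman rho 0.984) than to its own group (0.949). In the batch 2 library labelled KO M2 in control medium, rho was 0.970 with KO Mφ in MPNST-CM and 0.914 with its own group. All values below are from batch 1 unless batch 2 is named. Within 5 batch 1 groups (all 4 Mφ groups and WT M2 in MPNST-CM), the library numbered 1 differed from libraries 2 and 3 by more than those differed from each other. Over genes with at least 20 counts the chi-square per degree of freedom was 16 to 37.4 for the 10 pairs with library 1 and 2.11 to 3.42 for the 5 pairs without it. In KO M2 in control medium, library 2 stood apart to a lesser degree (10.8 and 13.1 for its pairs, 4.26 for libraries 1 and 3). The values were recomputed without those libraries and with library number as a block. The WT M2 libraries in control medium are numbered 2 to 4 and have no number 1. Number 4 occurs in no other batch 1 group, so its block holds that library alone. The labels do not say what the numbers stand for.

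**Figure D1:**
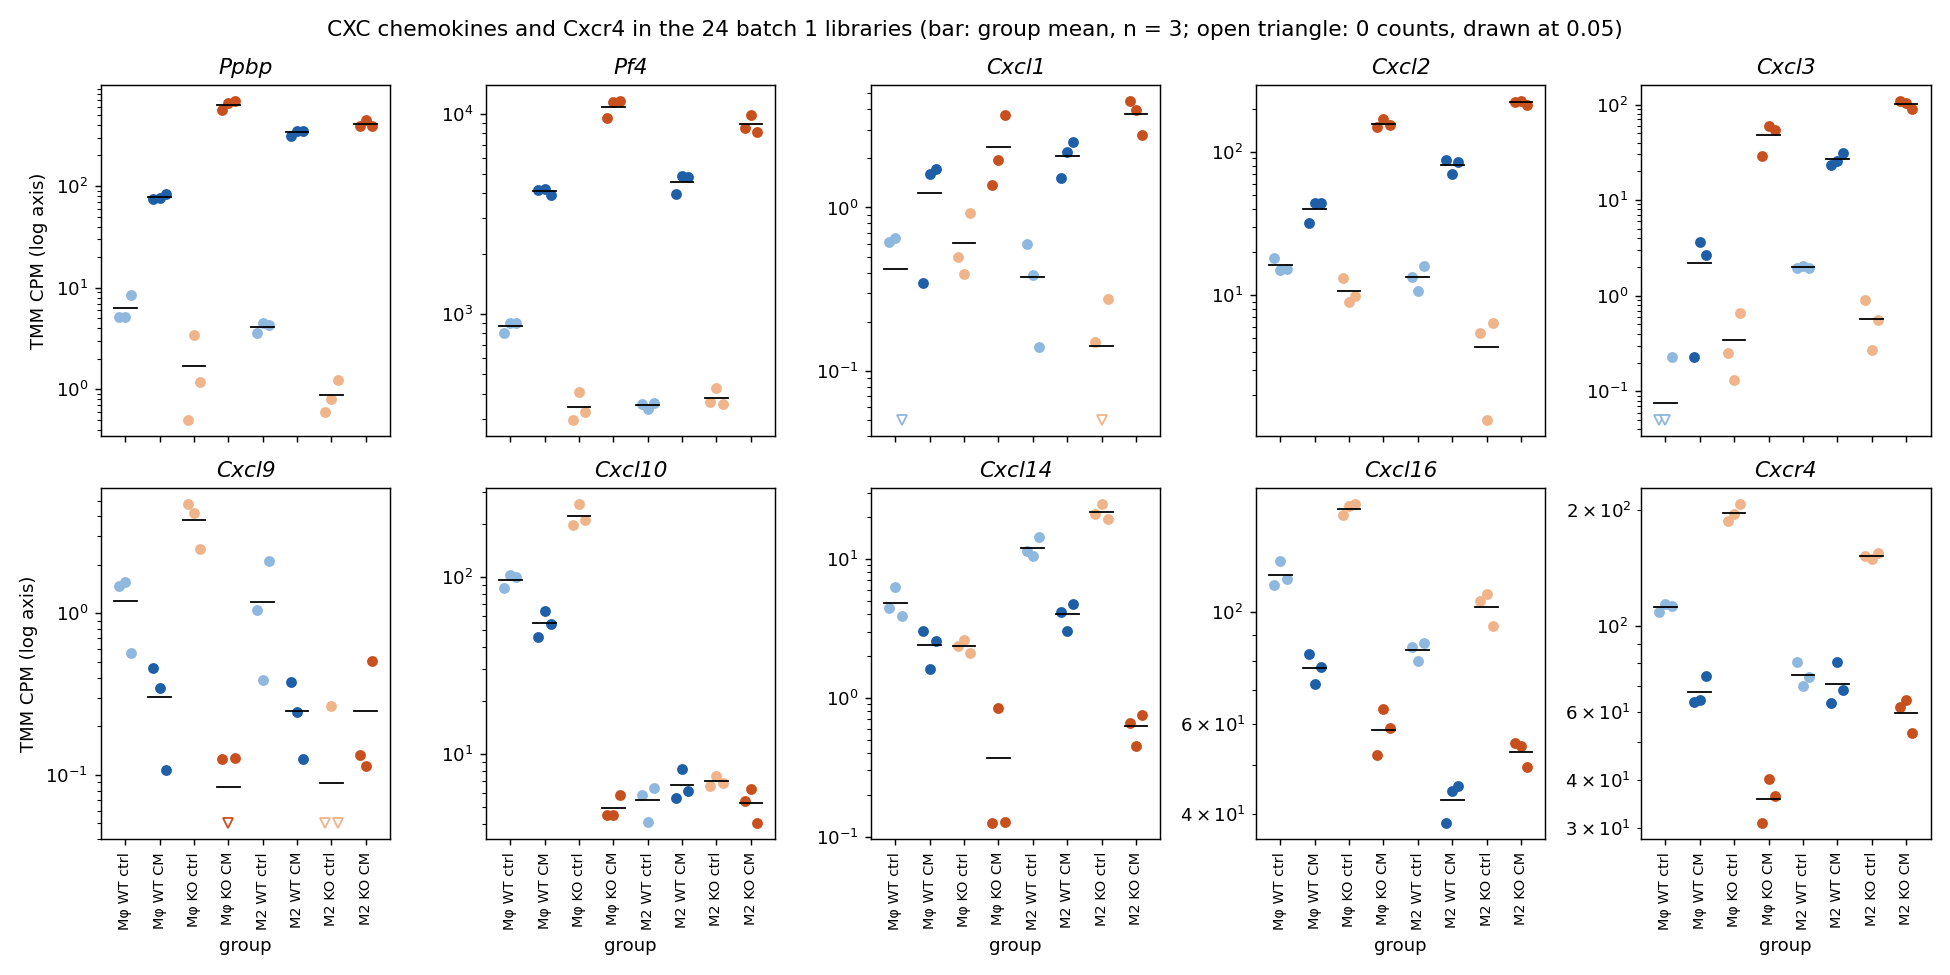
CPM of each of the 10 genes in the 24 batch 1 libraries, on a log axis, with 1 point per library, a bar at each group mean and open triangles for libraries at 0 counts. Ppbp, Pf4, Cxcl1, Cxcl2 and Cxcl3 were highest in a KO group in MPNST-CM, whereas Cxcl9, Cxcl10, Cxcl14, Cxcl16 and Cxcr4 were highest in a KO group in control medium.

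None of the 10 genes stayed under 3 counts in all libraries, and all 10 passed the filter on low counts. Ppbp, Pf4, Cxcl2, Cxcl10, Cxcl16 and Cxcr4 had at least 3 counts in each of the 24 libraries. Cxcl14 reached 3 counts in 22 libraries, Cxcl1 in 19, Cxcl3 in 17 and Cxcl9 in 13. Cxcl1 stayed under 3 counts in all 3 libraries of KO M2 in control medium. The same held for Cxcl3 in WT Mφ in control medium, and for Cxcl9 in KO Mφ in MPNST-CM and in KO M2 in control medium. A member that passed the filter only through the group where it was high had to differ between groups, as is the case for Cxcl1, Cxcl3 and Cxcl9.

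Of the 9 ligand genes, all but Cxcl14 and Cxcl16 lie on chromosome 5. In GRCm38.p6, Cxcl5, Ppbp, Pf4, Cxcl3, Cxcl15, Cxcl1 and Cxcl2 follow each other in this order, and Cxcl9 and Cxcl10 lie on either side of Art3. Cxcl14 is on chromosome 13, Cxcl16 on chromosome 11 and Cxcr4 on chromosome 1. RefSeq promoter sequences (GRCm38.p6) were found for 9 of the 10 genes, Cxcl16 having no entry. The 250 bases before the start are shown for 5 members whose means were higher in MPNST-CM in all 4 pairs (Ppbp, Pf4, Cxcl1, Cxcl2, Cxcl3), although for Cxcl1 in WT Mφ the groups overlapped, and for Cxcl10, which was lower in Mφ cells. Their positions are chr5:90768268-90768517 for Ppbp, chr5:90772185-90772434 for Pf4, chr5:90890995-90891244 for Cxcl1, chr5:90903649-90903898 for Cxcl2 and chr5:90785851-90786100 for Cxcl3, all on the plus strand, and chr5:92348890-92349139 on the minus strand for Cxcl10. Capitals mark matches to the κB consensus and to TATAAA on either strand.
Ppbp: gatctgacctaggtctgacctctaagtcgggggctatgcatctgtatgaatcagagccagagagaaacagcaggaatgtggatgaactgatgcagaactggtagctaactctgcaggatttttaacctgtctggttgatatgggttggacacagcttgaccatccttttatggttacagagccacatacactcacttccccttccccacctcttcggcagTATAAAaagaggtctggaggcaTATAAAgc
Pf4: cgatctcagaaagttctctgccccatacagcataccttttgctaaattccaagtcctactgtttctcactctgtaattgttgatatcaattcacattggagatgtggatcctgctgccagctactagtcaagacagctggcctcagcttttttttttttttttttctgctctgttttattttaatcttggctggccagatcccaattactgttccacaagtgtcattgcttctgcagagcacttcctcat
Cxcl1: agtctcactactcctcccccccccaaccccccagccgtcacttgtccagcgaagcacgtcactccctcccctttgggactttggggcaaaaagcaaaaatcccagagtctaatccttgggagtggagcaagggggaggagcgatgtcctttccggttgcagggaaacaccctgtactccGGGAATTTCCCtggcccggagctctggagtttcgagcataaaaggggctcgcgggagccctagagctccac
Cxcl2: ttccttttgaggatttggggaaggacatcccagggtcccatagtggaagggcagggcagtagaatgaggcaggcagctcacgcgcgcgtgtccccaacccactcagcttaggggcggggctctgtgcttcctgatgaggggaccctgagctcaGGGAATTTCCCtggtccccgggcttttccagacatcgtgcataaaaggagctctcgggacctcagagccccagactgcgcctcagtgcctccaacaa
Cxcl3: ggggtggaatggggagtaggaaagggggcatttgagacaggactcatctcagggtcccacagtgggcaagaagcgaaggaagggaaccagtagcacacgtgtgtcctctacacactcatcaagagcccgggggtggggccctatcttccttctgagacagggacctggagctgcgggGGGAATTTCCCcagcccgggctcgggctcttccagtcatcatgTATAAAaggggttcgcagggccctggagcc
Cxcl10: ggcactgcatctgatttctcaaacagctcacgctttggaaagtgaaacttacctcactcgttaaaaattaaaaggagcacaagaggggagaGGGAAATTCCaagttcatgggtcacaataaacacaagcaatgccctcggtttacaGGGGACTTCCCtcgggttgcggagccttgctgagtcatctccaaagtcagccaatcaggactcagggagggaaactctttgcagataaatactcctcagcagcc

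Cxcl1, Cxcl2 and Cxcl3 each hold the same κB match, which reads on both strands and ends 61, 87 and 63 bases before the start. Cxcl10 holds a pair of different κB matches, ending 150 and 94 bases before the start. The κB consensus occurs in 7.25% of the 32851 promoters searched in the same way, and in 4 of these 9 genes. TATAAA, present in 12.4% of promoters, was in 4 of the 9 genes. It begins 30 bases before the start in Ppbp, Cxcl3 and Cxcr4 and 195 bases before it in Cxcl9, and Ppbp has another at 8 bases. The letters GAAANNGAAA, an interferon-stimulated response element, were in Cxcl10 and Cxcl14 and in 2.98% of promoters. TGANTCA (6.75% of promoters) was in Ppbp and Cxcl10, and TTCNNNGAA (7.02%) in Cxcl14. ACGTG (16.6%) was in Cxcl1 and Cxcl3, and GCGTG (28.2%) in Cxcl2, Cxcl10, Cxcl14 and Cxcr4. TTCNNNNGAA, a form bound by STAT6, is in 5.85% of promoters and was in 0 of the 9, and Pf4 held 0 of the 8 motifs. A match is a description of letters, and no match says only that those letters are not in this window.

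Each ligand with the glutamate-leucine-arginine motif signals to neutrophils through Cxcr2, and Ppbp does so once it is trimmed to its active form. In WT Mφ, Ppbp was at 5.14, 5.20 and 8.53 CPM in control medium and at 74.9, 76.4 and 83.3 CPM in MPNST-CM. KO Mφ held 0.499, 3.40 and 1.18 CPM (4, 26 and 9 counts) in control medium and 557, 651 and 688 CPM in MPNST-CM. The 3 libraries in MPNST-CM lay above the 3 in control medium in both genotypes, and the KO groups lay lowest and highest of the 4. M2 cells showed the same directions. Their WT libraries were at 3.60, 4.53 and 4.35 CPM in control medium and at 313.0, 350.2 and 349 CPM in MPNST-CM, and the KO libraries at 0.599, 0.802 and 1.24 CPM (4, 6 and 9 counts) and at 393, 446 and 390.4 CPM.

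The ratio of mean Ppbp levels in MPNST-CM to control medium was 12.4 in WT Mφ (fitted log2 difference 3.62, SE 0.22) and 373 in KO Mφ (8.54, SE 0.27). It was 81.2 in WT M2 (6.33, SE 0.24) and 466 in KO M2 (8.83, SE 0.29, but 3.04 with all 27 libraries in 1 fit). The KO ratios rest on a control group near the limit of detection. Without KO Mφ control library 2, which held 26 of that group's counts, the log2 difference in KO Mφ was 9.54. In control medium Ppbp was lower in KO than in WT cells, 3.72-fold in Mφ (log2 -1.91, SE 0.34) and 4.72-fold in M2 (log2 -2.21, SE 0.43), without overlap. The Mφ value was -2.91 without the same library, and the M2 value turned to 3.16 with all 27 libraries in 1 fit. In MPNST-CM Ppbp was 8.08-fold higher in KO than in WT Mφ (log2 3.01, SE 0.18) and 1.21-fold higher in KO than in WT M2 (log2 0.28, SE 0.17, but -0.19 with all 27 libraries). The M2 groups did not overlap either. From the highest to the lowest group mean the order was KO Mφ, KO M2, WT M2 and WT Mφ in MPNST-CM, then WT Mφ, WT M2, KO Mφ and KO M2 in control medium. Only the last pair of neighbours overlapped.

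Cxcl2, a neutrophil attractant that macrophages release early in inflammation, was at 18.1, 15 and 15.2 CPM in WT Mφ in control medium and at 31.7, 43.8 and 43.9 CPM in MPNST-CM. In KO Mφ the values were 13.1, 8.89 and 9.85 CPM in control medium and 150, 169 and 156 CPM in MPNST-CM. The groups in MPNST-CM were again higher in both genotypes, with the KO group highest. WT M2 cells held 13.4, 10.7 and 15.8 CPM in control medium and 87.7, 70.5 and 85.3 CPM in MPNST-CM. For KO M2 cells the values were 5.40, 1.34 and 6.33 CPM and 224.0, 227 and 214 CPM. Unlike Ppbp, Cxcl2 was highest in KO M2 and not in KO Mφ, and these groups did not overlap.

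Mean Cxcl2 was 2.47-fold higher in MPNST-CM in WT Mφ (log2 1.30, SE 0.22), 14.9-fold in KO Mφ (3.89, SE 0.24), 6.1-fold in WT M2 (2.61, SE 0.23) and 50.9-fold in KO M2 (5.68, SE 0.27). In MPNST-CM, KO cells exceeded WT cells 3.97-fold in Mφ (log2 1.99) and 2.73-fold in M2 (log2 1.45), without overlap. In control medium the KO groups were the lower ones, 1.52-fold in Mφ (log2 -0.60) and 3.06-fold in M2 (log2 -1.62), again without overlap. KO M2 library 2 in control medium, at 1.34 CPM, is the library that stood apart in that group, and without it the M2 value was -1.20. With all 27 libraries in 1 fit the M2 value turned to 2.56, and the log2 difference between media in KO M2 was 1.09. WT Mφ, WT M2 and KO Mφ in control medium overlapped as neighbours in the order of levels.

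Cxcl3, a close paralogue of Cxcl1 and Cxcl2, barely exceeded 0 counts in Mφ cells kept in control medium. WT Mφ held 0, 0 and 2 counts in control medium and 2, 32 and 25 counts (0.231, 3.68 and 2.69 CPM) in MPNST-CM, where library 1 stood apart. For KO Mφ the counts were 2, 1 and 5 in control medium, and the levels in MPNST-CM were 28.7, 59.9 and 53.8 CPM. No ratio is given for these pairs, since the control groups summed to fewer than 10 counts. WT M2 cells were at 1.95, 2.07 and 1.96 CPM in control medium and at 23.2, 25.6 and 31.4 CPM in MPNST-CM, a 13.4-fold difference of means (log2 3.73, SE 0.42). KO M2 cells had 6, 2 and 4 counts in control medium and 109.1, 103.0 and 90.5 CPM in MPNST-CM, a 176-fold difference (log2 7.45, SE 0.49) that rests on those few counts. Within MPNST-CM, Cxcl3 was 21.6-fold higher in KO than in WT Mφ (log2 4.41, SE 0.39) and 3.77-fold higher in KO than in WT M2 (log2 1.92, SE 0.29). KO M2 stood above every other group, while KO Mφ and WT M2 in MPNST-CM overlapped.

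Cxcl1 remained scarce, with 0 to 35 counts per library. In control medium its counts were 5, 5 and 0 in WT Mφ, 4, 3 and 7 in KO Mφ, 4, 3 and 1 in WT M2 and 1, 0 and 2 in KO M2. MPNST-CM libraries held 3, 14 and 16 counts in WT Mφ, 11, 16 and 29 in KO Mφ, 12, 18 and 20 in WT M2 and 34, 35 and 22 in KO M2. KO Mφ cells were 3.87-fold higher in MPNST-CM (log2 1.92, SE 0.60), without overlap, and group means ran from 0.142 to 3.74 CPM with every pair of neighbours in the order overlapping.

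Pf4, a platelet chemokine that binds heparin strongly and lacks the neutrophil-attracting motif, was the most abundant of the 10 genes in counts. WT Mφ held 802, 901 and 906 CPM in control medium and 4175, 4214 and 3918 CPM in MPNST-CM. KO Mφ were at 296, 409 and 325 CPM in control medium and at 9494, 11397 and 11569 CPM in MPNST-CM. As for Ppbp, KO Mφ were below WT Mφ in control medium and above them in MPNST-CM. In WT M2 the values were 355, 336.0 and 358 CPM in control medium and 3955, 4868 and 4826 CPM in MPNST-CM, and in KO M2 they were 365, 428 and 356 CPM and 8520, 9821 and 8123 CPM. In KO Mφ in MPNST-CM, Pf4 took 1.11% of all counts and ranked 2 to 5 among all genes by count, against 0.0349% in control medium.

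Mean Pf4 was 4.72-fold higher in MPNST-CM in WT Mφ (log2 2.24, SE 0.11), 31.5-fold in KO Mφ (4.98, SE 0.13), 13-fold in WT M2 (3.70, SE 0.12) and 23-fold in KO M2 (4.53, SE 0.12). Against WT, the KO level in MPNST-CM was 2.64-fold higher in Mφ (log2 1.40) and 1.94-fold higher in M2 (log2 0.96). In control medium it was 2.53-fold lower in KO Mφ (log2 -1.34), whereas WT and KO M2 overlapped (log2 0.13). Over the alternatives tried, which include all 27 libraries in 1 fit, the M2 value ran from 0.02 to 1.70. Within control medium, WT M2 were 2.49-fold lower than WT Mφ (log2 -1.31), whereas KO M2 and KO Mφ overlapped (log2 0.16, from 0.06 to 1.76 over the alternatives). KO Mφ overlapped KO M2 in MPNST-CM, WT M2 overlapped WT Mφ in MPNST-CM, and the lowest 3 groups, KO M2, WT M2 and KO Mφ in control medium, overlapped as neighbours.

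Since Ppbp and Pf4 are known from platelets, 14 megakaryocyte and platelet markers were summed in each group. The sum lay between 27.9 and 89.3 CPM, and was 41.8 CPM in KO Mφ in control medium and 27.9 CPM in MPNST-CM, where Ppbp averaged 632 CPM and Pf4 10820 CPM. Without Vwf, which is shared with endothelial cells, the sum of the other 13 went the other way in KO Mφ, from 13.9 to 20.6 CPM, and from 16.9 to 19.4 CPM in WT Mφ. In M2 it went from 23.3 to 20 CPM in WT and from 29.9 to 22.7 CPM in KO. Gp1bb, Gp5, Gp6, Tubb1 and Gata1 stayed under 3 counts in all 24 libraries. Treml1 was the most abundant marker in KO Mφ in MPNST-CM, at a mean of 11.2 CPM. Vwf, the most abundant over all groups (7.31 to 59.4 CPM), fell with MPNST-CM in KO Mφ (log2 -1.93, adjusted p = 1.54e-10, edgeR quasi-likelihood test with Benjamini-Hochberg adjustment over 13614 genes, as for all adjusted p below). It also fell in WT M2 (log2 -1.83, adjusted p = 1.83e-10) and in KO M2 (log2 -2.49, adjusted p = 2.46e-13). Selp, the P-selectin gene, rose in KO Mφ from a mean of 0.214 to 4.76 CPM (adjusted p = 1.02e-07). Of the 5 markers tested, 3 rose and 1 fell with MPNST-CM in KO Mφ (median log2 1.76, all genes -0.04, all genes past the threshold 32.9%), so that 3 went the same way as Ppbp and Pf4. Besides Selp these were Gp1ba, from 0.471 to 1.82 CPM (adjusted p = 0.0124, but 0.0669 without KO Mφ control library 3), and Nfe2, from 0.606 to 2.09 CPM (adjusted p = 0.00975, lost without KO Mφ control library 1 or MPNST-CM library 3, at most 0.0661). In WT M2 and in KO M2, 2 of the 5 fell (all genes 24.5% and 36.9%). Besides Vwf these were Selp in WT M2 (log2 -1.65) and Treml1 in KO M2 (log2 -0.56), although Ppbp and Pf4 were higher in MPNST-CM there too. In WT Mφ, where Ppbp and Pf4 were higher in MPNST-CM as well, the median log2 was 0.19 and the adjusted p of the 5 markers ran from 0.214 to 0.878. The part of these markers in the levels of Ppbp and Pf4 was not tested. For every adjusted p under 0.05 given for a pair of groups, here and below, the 3 libraries of one group lay wholly above or below those of the other.

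**Figure D2:**
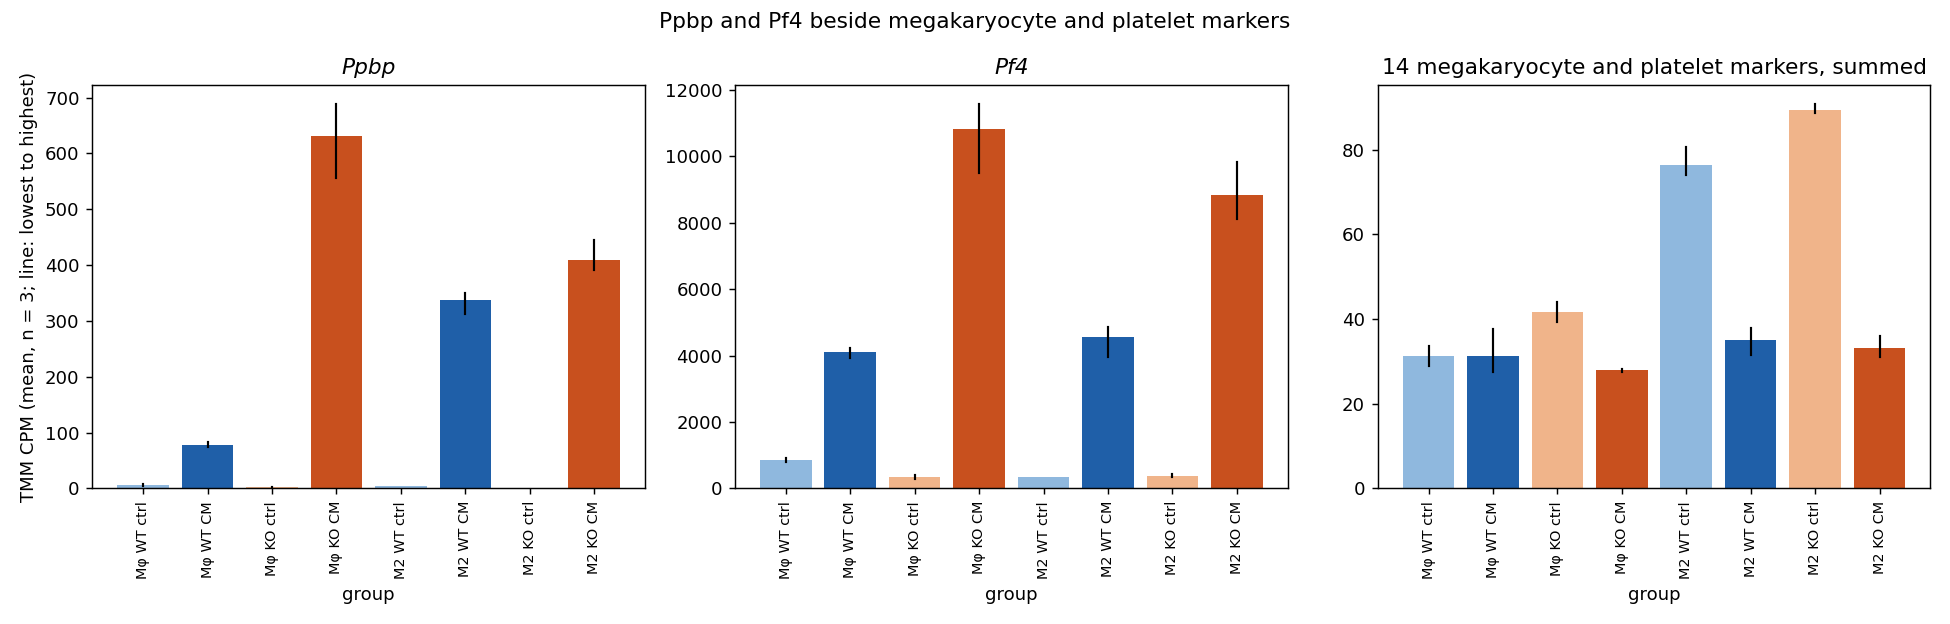
Mean CPM of Ppbp, of Pf4 and of the sum of 14 megakaryocyte and platelet markers in the 8 groups, with lines from the lowest to the highest of 3 libraries. The marker sum was 41.8 CPM in KO Mφ in control medium and 27.9 CPM in MPNST-CM, and without Vwf 13.9 and 20.6 CPM.

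Cxcl10, an interferon-inducible ligand of Cxcr3, went the other way in Mφ cells. In WT Mφ it was at 86.0, 102 and 100.1 CPM in control medium and at 45.8, 64.0 and 54.5 CPM in MPNST-CM. KO Mφ held 196, 257 and 210 CPM in control medium and 4.49, 4.49 and 5.85 CPM in MPNST-CM. The KO groups thus bracketed the WT groups, with no overlap among the 4. Mean Cxcl10 was 1.76-fold lower in MPNST-CM in WT Mφ (log2 -0.81, SE 0.14) and 44.7-fold lower in KO Mφ (log2 -5.48, SE 0.18). In control medium it was 2.30-fold higher in KO than in WT Mφ (log2 1.2), and in MPNST-CM it was 11.1-fold lower (log2 -3.47, SE 0.18).

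In M2 cells Cxcl10 was low in every library. The values were 5.85, 4.14 and 6.45 CPM in WT M2 in control medium and 5.65, 8.16 and 6.15 CPM in MPNST-CM, with overlap. KO M2 held 6.59, 7.48 and 6.88 CPM in control medium and 5.41, 6.32 and 4.04 CPM in MPNST-CM (log2 -0.40), without overlap. Against Mφ in control medium, M2 cells were 17.5-fold lower in WT (log2 -4.14) and 31.6-fold lower in KO (log2 -4.98). KO Mφ in MPNST-CM overlapped KO M2 in MPNST-CM.

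Cxcl9, another Cxcr3 ligand induced by interferon gamma, was near the limit of detection outside KO Mφ in control medium, where it had 38, 32 and 19 counts (4.74, 4.18 and 2.49 CPM). WT Mφ in control medium had 12, 12 and 5 counts, a 3.17-fold lower mean without overlap (log2 of KO against WT 1.67, SE 0.50). In MPNST-CM there were 4, 3 and 1 counts in WT Mφ and 1, 0 and 1 in KO Mφ. M2 groups in control medium had 7, 3 and 15 counts (WT) and 0, 2 and 0 counts (KO), and those in MPNST-CM had 3, 2 and 1 (WT) and 1, 1 and 4 (KO).

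Cxcl14, a ligand of uncertain receptor found in epithelia and stroma, was highest in M2 cells in control medium. WT M2 held 11.4, 10.5 and 14.3 CPM in control medium and 4.14, 3.04 and 4.77 CPM in MPNST-CM. KO M2 held 21, 24.7 and 19.3 CPM in control medium and 0.660, 0.451 and 0.758 CPM (5, 4 and 6 counts) in MPNST-CM. As for Cxcl10 in Mφ, the KO groups were the highest and the lowest of the 4 and none overlapped. WT Mφ were at 4.41, 6.24 and 3.87 CPM in control medium and 3.00, 1.61 and 2.58 CPM in MPNST-CM, and KO Mφ at 2.37, 2.61 and 2.10 CPM and at 1, 7 and 1 counts. Mean Cxcl14 was 2.02-fold lower in MPNST-CM in WT Mφ (log2 -1.0, SE 0.29), 3.03-fold lower in WT M2 (-1.59, SE 0.26) and 34.8-fold lower in KO M2 (-5.10, SE 0.33). KO against WT, it was 2.05-fold lower in Mφ in control medium (log2 -1.02), 1.80-fold higher in M2 in control medium (log2 0.85) and 6.40-fold lower in M2 in MPNST-CM (log2 -2.66). Over the alternatives tried, the last of these log2 values ran from -2.82 to -0.75. Neighbours overlapped for WT Mφ in control medium with WT M2 in MPNST-CM, for WT Mφ in MPNST-CM with KO Mφ in control medium, and for both KO groups in MPNST-CM.

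Cxcl16 encodes a chemokine anchored in the membrane that also takes up oxidised lipoprotein and is released by shedding, and its levels varied least between groups. They were 113, 126 and 116 CPM in WT Mφ in control medium against 82.6, 72.0 and 77.9 CPM in MPNST-CM. In KO Mφ they were 155.0, 162 and 163 CPM against 52.2, 64.5 and 59.1 CPM. In both genotypes the libraries in MPNST-CM lay below those in control medium. WT M2 held 85.3, 80.05 and 86.8 CPM against 38.3, 44.3 and 45.3 CPM, and KO M2 105.2, 108.3 and 93.6 CPM against 55.1, 54.4 and 49.4 CPM. The log2 difference was -0.61 in WT Mφ, -1.45 in KO Mφ, -0.98 in WT M2 and -0.95 in KO M2. KO cells were above WT cells in control medium (log2 0.44 in Mφ, 0.28 in M2) and in M2 in MPNST-CM (0.31), and below them in Mφ in MPNST-CM (-0.40), always without overlap. In the order of levels WT M2 in control medium overlapped WT Mφ in MPNST-CM, and KO Mφ overlapped KO M2 in MPNST-CM.

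Cxcr4, the receptor of Cxcl12, which retains leukocytes in marrow and tissue, was highest in KO cells in control medium. WT Mφ held 109, 114 and 113 CPM in control medium and 63.4, 64.3 and 74.3 CPM in MPNST-CM. KO Mφ held 187, 195 and 207 CPM and 30.8, 40.1 and 36.2 CPM, again the highest and the lowest of the 4 groups, without overlap. WT M2 were at 80.7, 70.0 and 73.7 CPM in control medium and 63.0, 80.5 and 68.1 CPM in MPNST-CM, with overlap (log2 -0.08), and KO M2 at 152, 149 and 154 CPM and 61.5, 64.4 and 52.8 CPM. The mean was 1.66-fold lower in MPNST-CM in WT Mφ (log2 -0.73), 5.5-fold lower in KO Mφ (-2.46) and 2.54-fold lower in KO M2 (-1.35). In control medium KO exceeded WT 1.75-fold in Mφ (log2 0.81) and 2.03-fold in M2 (log2 1.02), and in MPNST-CM KO Mφ were 1.89-fold lower (log2 -0.92). WT M2 in control medium, WT M2 and WT Mφ in MPNST-CM and KO M2 in MPNST-CM overlapped as neighbours in the order.

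**Figure D3:**
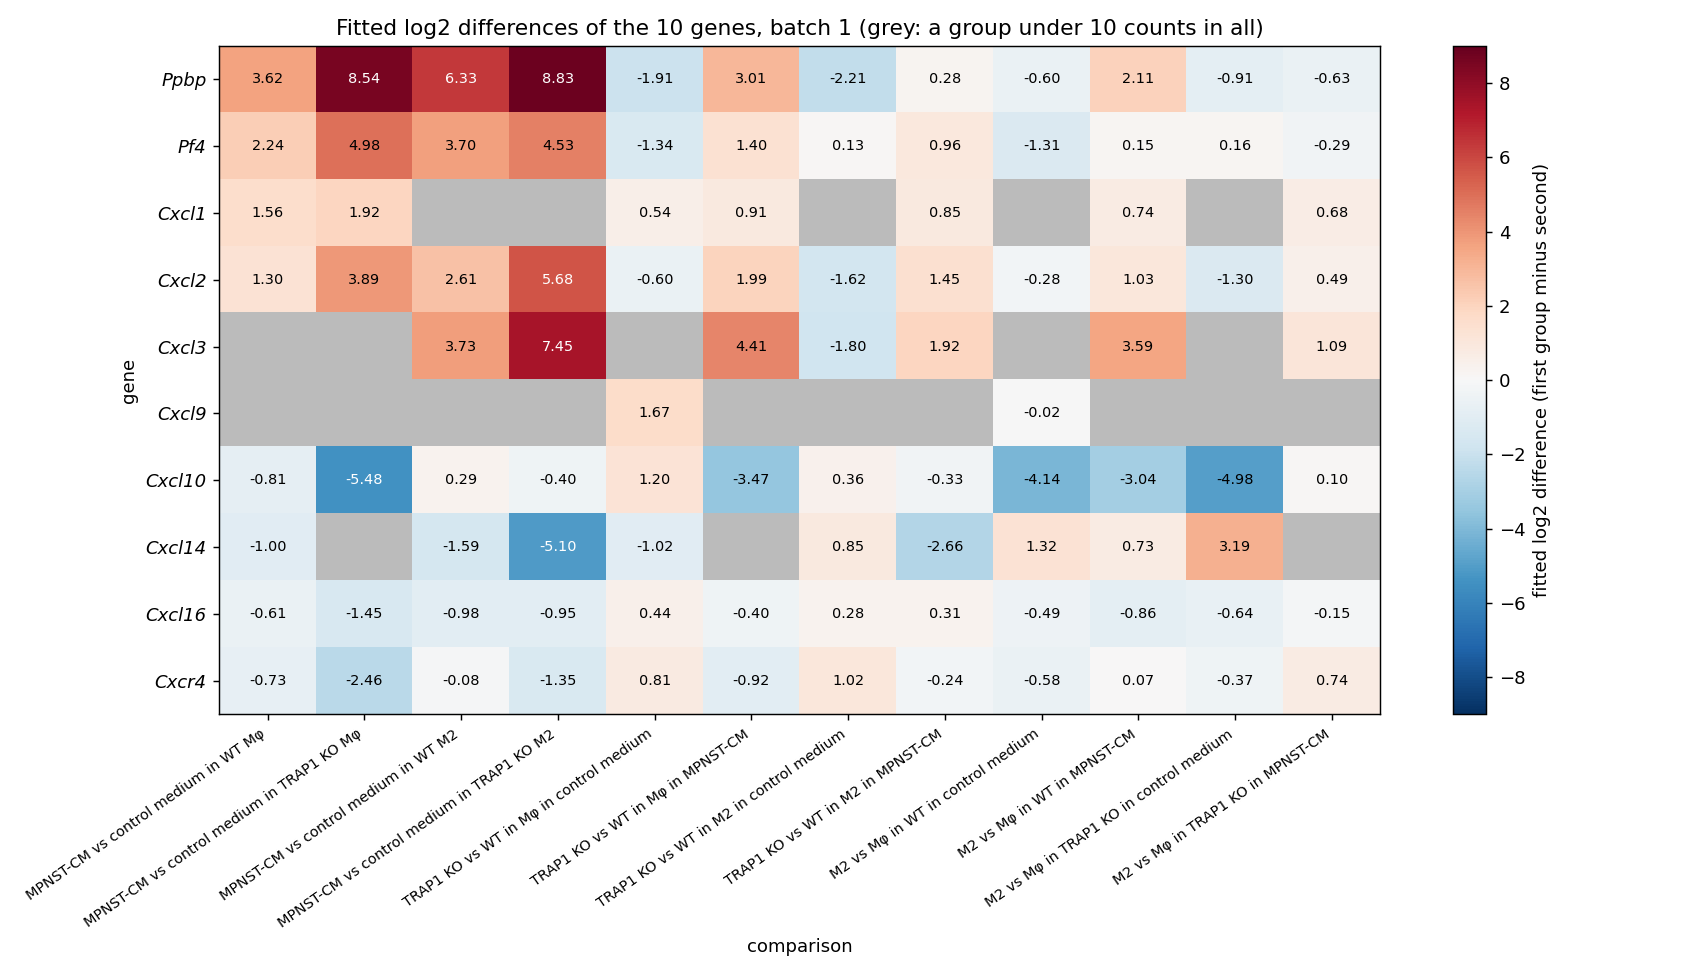
Fitted log2 differences of the 10 genes in the comparisons of 1 group with another in batch 1, 1 cell per gene and comparison. Cells are grey where a group summed to fewer than 10 counts, and the genotype by medium interactions are not drawn. In MPNST-CM against control medium the largest value was 8.83 (Ppbp, KO M2) and the lowest -5.48 (Cxcl10, KO Mφ).

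The number of members past the threshold of adjusted p 0.05 is given beside the share of all 13614 tested genes past it, and nothing is read from it, since the members were chosen with these values known. The counts include Cxcl1, Cxcl3 and Cxcl9. These passed the filter through some of the groups only, and their calls are taken to support nothing. With MPNST-CM, 9 of the 10 members passed in WT Mφ (4 higher, 5 lower, all genes 21.2%) and 10 in KO Mφ (5 higher, 5 lower, all genes 32.9%). In M2 cells 8 passed in WT (5 higher, 3 lower, all genes 24.5%) and 8 in KO (5 higher, 3 lower, all genes 36.9%). Between KO and WT in control medium 7 passed in Mφ (all genes 16.6%) and 6 in M2 (all genes 16.4%), and in MPNST-CM 8 passed in Mφ (all genes 38.2%) and 5 in M2 (all genes 34%). For M2 against Mφ in control medium 6 passed in WT (all genes 37.2%) and 6 in KO (all genes 28.5%), and in MPNST-CM 5 passed in WT (all genes 24.9%) and 3 in KO (all genes 11.2%). These comparisons share control libraries and do not stand for separate observations.

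The difference between genotypes in the response to medium is described by the fitted interaction, on the log2 scale, with positive values where the difference between media was more positive in KO. For Ppbp it was 4.92 (SE 0.37) in Mφ, or 5.92 without KO Mφ control library 2, and 2.50 (SE 0.47) in M2, and for Pf4 2.74 (SE 0.16) and 0.82 (SE 0.15). Cxcl2 had 2.59 (SE 0.32) in Mφ and 3.07 (SE 0.36) in M2. With all 27 libraries in 1 fit the M2 values were -3.35 for Ppbp, -1.19 for Pf4 and -1.57 for Cxcl2. In batch 1, values were negative for Cxcl10 in Mφ (-4.67, SE 0.22), Cxcl14 in M2 (-3.50, SE 0.45) and Cxcr4 in both states (-1.73 in Mφ and -1.26 in M2, SE 0.14 each). Over the alternatives tried, the Cxcl14 value in M2 ran from -3.68 to -1.21. Cxcl16 had -0.84 (SE 0.13) in Mφ and 0.03 in M2, where the value was -0.05 with no filter on low counts. Counted over all genes, 7 members in Mφ (all genes 19.7%) and 6 in M2 (all genes 20.2%) passed the threshold.

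Batch 2 was not used for these values. Its WT Mφ library in control medium held Ppbp at 1.73 CPM, Pf4 at 489 CPM, Cxcl2 at 11.1 CPM and Cxcl10 at 53.5 CPM. The library labelled KO M2 in control medium held Ppbp at 144 CPM, Pf4 at 3398 CPM and Cxcl2 at 299 CPM, against batch 1 means of 0.880, 383 and 4.36 CPM for that label. In the library labelled KO M2 in MPNST-CM, Ppbp was at 0.933 CPM (9 counts), Pf4 at 511 CPM and Cxcl2 at 6.12 CPM, against batch 1 means of 410, 8822 and 222 CPM. Cxcl3 was at 12.8 CPM in the first and 0.726 CPM in the second, against batch 1 means of 0.572 and 101 CPM for their labels. The first library thus lay between its own group and KO M2 in MPNST-CM for Ppbp, Pf4 and Cxcl3 and above both for Cxcl2. With all 27 libraries in 1 fit the KO against WT difference of Ppbp in M2 in control medium went from -2.21 to 3.16, that of Cxcl2 from -1.62 to 2.56 and that of Cxcl3 from -1.80 to 0.99. In MPNST-CM the Ppbp difference in M2 went from 0.28 to -0.19. The difference between media in KO M2 went from 8.83 to 3.04 for Ppbp, from 4.53 to 2.57 for Pf4, from 5.68 to 1.09 for Cxcl2, from 7.45 to 4.25 for Cxcl3, from -5.10 to -2.75 for Cxcl14, from -0.95 to -0.67 for Cxcl16 and from -1.35 to -0.83 for Cxcr4. For Cxcl1 it was 0.33 with all 27 libraries.

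**Figure D4:**
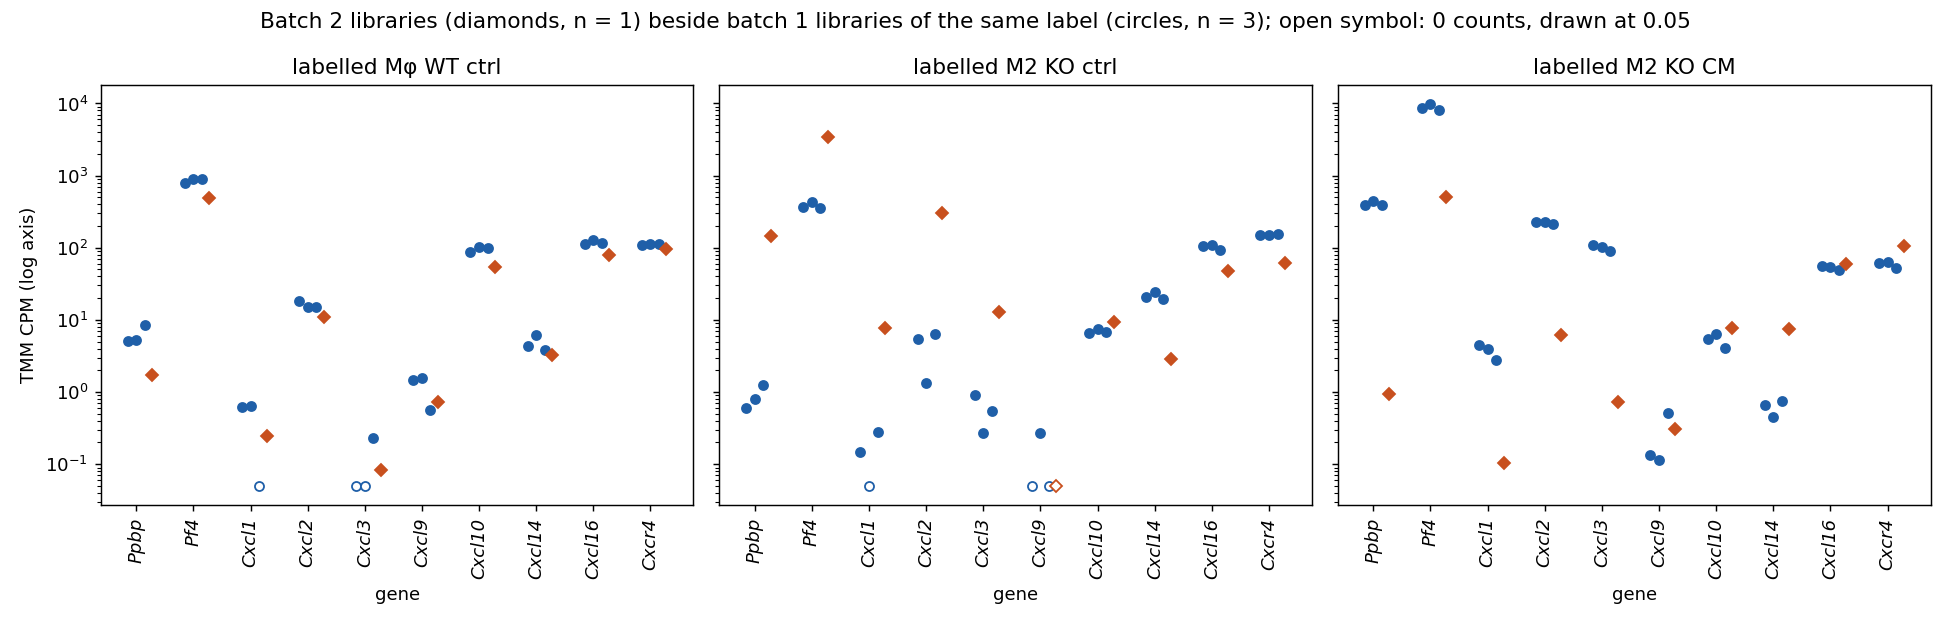
CPM of the 10 genes in the 3 groups that have a batch 2 library, on a log axis, with circles for batch 1 and diamonds for batch 2. For Ppbp the diamond labelled KO M2 in control medium lies at 144 CPM and the diamond labelled KO M2 in MPNST-CM at 0.933 CPM.

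Of the 6 other CXC ligand genes, 2 were tested, and of the 9 other CXC and atypical receptors, 3 were tested. Cxcl5, a neutrophil attractant next to Ppbp on the chromosome, had 0 counts in 3 of the 4 groups in control medium and group means up to 3.06 CPM in KO M2 in MPNST-CM. Its counts summed over the 3 libraries in MPNST-CM were 4 in WT Mφ, 37 in KO Mφ, 18 in WT M2 and 74 in KO M2. It passed the filter only through the groups in MPNST-CM, so no test of it is given. Ackr3, a scavenging receptor for Cxcl12, was at 0 counts in all 12 libraries in control medium and in MPNST-CM averaged 0.0744 CPM in WT Mφ, 2.16 CPM in KO Mφ, 0.585 CPM in WT M2 and 3.26 CPM in KO M2. It too passed the filter only through groups in MPNST-CM, and no test of it is given. Ackr4, a scavenging receptor for other chemokines, averaged 1.21 CPM in WT M2 and 1.5 CPM in KO M2 in control medium. The KO M2 mean in MPNST-CM was 0.442 CPM. Ackr4 passed the filter only through M2 libraries in control medium. Cxcl11, the remaining Cxcr3 ligand, averaged 1.64 CPM in KO Mφ in control medium and 0.0829 CPM in MPNST-CM, and passed the filter only through the Mφ groups in control medium. Cxcr3 itself rose with MPNST-CM in WT M2 from 2.33 to 6.05 CPM (log2 1.37, SE 0.23, adjusted p = 4.21e-05). It did not pass the threshold in WT Mφ (log2 -0.23), KO Mφ (-0.38) or KO M2 (0.16). Cxcr2, the receptor of Ppbp and Cxcl1 to Cxcl3, had at least 3 counts in all 3 libraries of 1 group, WT M2 in control medium (mean 1.03 CPM), and in 4 batch 1 libraries of 3 other groups. Its mean was 0.576 CPM in KO M2 in control medium, and it was too scarce to be tested. Ackr1, Ackr2, Cxcl15 and Cxcl17 had 0 counts in all 24 libraries.

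Lists of genes acting on these chemokines were counted with the same test. The lists were chosen with earlier results of these data known. Genes named from them with an adjusted p were picked by the size of their log2 difference, so those p-values carry that choice. Among 17 transcription factors of CXC chemokine genes, 6 rose and 5 fell with MPNST-CM in KO Mφ (all genes past the threshold 32.9%, median log2 0.08, all genes -0.04), and 10 rose and 3 fell in KO M2 (36.9%, median 0.72, all genes -0.01). In WT the counts were 3 and 4 in Mφ (21.2%, median -0.09) and 7 and 4 in M2 (24.5%, median 0.11). Irf7, which drives interferon genes, rose in KO M2 from 19.2 to 236 CPM (log2 3.61, adjusted p = 5.00e-19), while Cxcl10 in the same cells stayed between 4.04 and 7.48 CPM. Fos rose in KO Mφ from 28.4 to 233 CPM (log2 3.04, adjusted p = 4.96e-12).

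Of 9 genes for granule storage and glycosaminoglycan partners of chemokines, 4 rose and 1 fell with MPNST-CM in KO Mφ (all genes 32.9%, median log2 -0.01, all genes -0.04). In KO M2 the counts were 5 and 2 (36.9%, median 0.28, all genes -0.01), in WT Mφ 2 and 1 (21.2%, median 0.13) and in WT M2 3 and 4 (24.5%, median -0.03). Thbs1, a platelet granule protein that macrophages also make, averaged 16.3 CPM in KO Mφ in control medium and 1875 CPM in MPNST-CM (log2 6.84, adjusted p = 4.14e-20), without overlap. In WT Mφ it went from 16.8 to 146 CPM (log2 3.12, adjusted p = 1.40e-13), and the interaction was 3.72 (adjusted p = 1.82e-12). Srgn, whose proteoglycan holds Pf4 in granules, rose in KO Mφ from 258 to 565 CPM (log2 1.13, adjusted p = 7.14e-07). Sdc1, a heparan sulphate carrier, fell in KO M2 from 110 to 16.7 CPM (log2 -2.72, adjusted p = 1.49e-16).

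Among 5 tested proteases that shed or trim CXC chemokines, 1 rose and 3 fell with MPNST-CM in each genotype of Mφ, 4 fell in WT M2 and 2 in KO M2, where all genes had 21.2% in WT Mφ, 32.9% in KO Mφ, 24.5% in WT M2 and 36.9% in KO M2. The 2 of 5 in KO M2 is near that share. The gene that rose in KO Mφ, Ctsg, passed the filter only through KO Mφ in MPNST-CM, so that its call there supports nothing. The medians were -0.50 in WT Mφ (all genes -0.02), -0.83 in KO Mφ (-0.04), -0.58 in WT M2 (-0.03) and -0.22 in KO M2 (-0.01). Adam17, a sheddase, fell in all 4 comparisons with medium, by 0.50 in WT Mφ (adjusted p = 0.000256), 0.83 in KO Mφ (adjusted p = 5.43e-08), 0.58 in WT M2 (adjusted p = 2.74e-05) and 1.19 in KO M2 (adjusted p = 5.61e-11) on the log2 scale. Cxcl16, a membrane chemokine released by shedding, was lower in the same 4 comparisons. Both are RNA levels, which do not measure shedding, and a link between them was not tested. Mmp12, which trims neutrophil attractants, fell in KO M2 from 9774 to 1317 CPM (log2 -2.89, adjusted p = 4.84e-17). Of 12 genes for signalling and desensitisation of chemokine receptors, 5 rose and 2 fell in KO Mφ and the same numbers in KO M2, with 1 and 2 in WT Mφ and 1 and 3 in WT M2, and medians between 0.01 and 0.10. Those WT counts are near the all-gene shares of 21.2% and 24.5%, and the KO shares of all genes are higher too (32.9% and 36.9%). Rgs2 fell in KO Mφ from 765 to 308 CPM (log2 -1.31, adjusted p = 2.37e-13). Of 7 genes for decay of AU-rich mRNAs, a class that includes Cxcl1 and Cxcl2, 1 rose and 1 fell in each genotype of Mφ, 1 fell in WT M2 and 2 rose in KO M2 (median in KO M2 0.26, all genes -0.01). The all-gene shares were 21.2% in WT Mφ, 32.9% in KO Mφ, 24.5% in WT M2 and 36.9% in KO M2. Zfp36l1 was among the 2 that rose in KO M2, from 79.2 to 249 CPM (log2 1.65, adjusted p = 1.05e-07).

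Markers of other cell types were summed in each group as well, and their part in the results was not tested. The sum over 10 neutrophil genes was 2.28 to 19 CPM, with S100a8 as the most abundant. It was 8.74 CPM in WT Mφ and 2.28 CPM in KO Mφ in control medium and 8.98 and 5.82 CPM in MPNST-CM. In M2 it was 19 CPM in WT and 13.1 CPM in KO in control medium and 10.5 and 5.63 CPM in MPNST-CM. Of 4 tested, 2 rose with MPNST-CM in KO Mφ (median log2 1.82, all genes 32.9%), of which S100a9 (adjusted p = 0.0347) lost its call without library 1 or 2 of either medium (at most 0.191), and 2 were lower in KO than in WT Mφ in control medium (median -2.01, all genes 16.6%). The other was Ly6g, at 0.0832 CPM in control medium and 1.87 CPM in MPNST-CM, which passed the filter only through the latter group, so that its call there supports nothing. In KO M2 its means were 0.0446 and 0.663 CPM, while S100a8 and S100a9 fell there (all genes 36.9%). In WT Mφ S100a9 rose (adjusted p = 0.0358, all genes 21.2%), a call lost without any 1 of the libraries compared other than MPNST-CM library 1 (at most 0.189). In WT M2 S100a8 and S100a9 fell (adjusted p = 0.00968 and 0.0380, all genes 24.5%). There the S100a8 call was lost without MPNST-CM library 1 or control library 2 (at most 0.111), and the S100a9 call without any 1 of the 6 libraries compared or of the 3 of KO M2 in control medium (at most 0.156). For 7 T and NK cell genes it was 0.0384 to 0.373 CPM (Cd3d most abundant, Trac at 0), and for 5 B cell genes 0.638 to 2.96 CPM (Cd79b most abundant, Cd79a at 0). Dendritic cell genes (5) summed to 6.32 to 18.4 CPM with Zbtb46 as the most abundant, and mast cell and basophil genes (5) to 0.290 to 7.85 CPM with Prss34 as the most abundant and Mcpt4 at 0, highest in WT and KO M2 in control medium (7.85 and 3.32 CPM). Fibroblast genes (6) reached 0.674 to 3.13 CPM (Col1a1 most abundant, Lum at 0) and Schwann lineage genes (6) 4.88 to 9.65 CPM (Erbb3 most abundant, Ngfr at 0). The 5 endothelial genes summed to 3.38 to 53.3 CPM, nearly all of it Kdr, while Tek, Emcn and Cldn5 were at 0. The sum was higher in MPNST-CM in each pair, with 18.9 and 53.3 CPM in WT Mφ, 29.6 and 39.8 CPM in KO Mφ, 3.38 and 24.4 CPM in WT M2 and 4.86 and 43.7 CPM in KO M2. Kdr, the tested gene of this list, rose in all 4 pairs, in KO Mφ by a smaller amount (log2 0.41, adjusted p = 0.0128, but 0.0820 without KO Mφ control library 1).

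As a description of likeness, Pearson r of log2 CPM was computed between each member and the other tested genes with at least 10 CPM in a group mean (9104 or 9105 genes) over the 24 libraries, which share groups and batch. Ppbp was most like Vcan (r 0.99), Abcb1a (0.98), Ehd1 (0.97), Pf4 (0.97) and Ddit4 (0.97). Vcan averaged 3.28 CPM in KO Mφ in control medium and 209 CPM in MPNST-CM, as against 1.69 and 632 CPM for Ppbp. Pf4 was nearest to Ehd1 and Trem1 (0.98 each), Cxcl2 to Pde8a and Rab21 (0.96 each) and Cxcl3 to Tlr4 and Crem (0.96 each). For Cxcl1 they were Man2a1 (0.89) and 1810037I17Rik (0.88), and for Cxcl9 Saa3 (0.80) and Tbc1d8 (0.78). Cxcl10 was nearest to Apobec3 (0.96) and Cmah (0.94), and Cxcl14 to Erp29 (0.96) and Galnt9 (0.94). Cxcl16 had Rasa4 (0.97) and Cd5l (0.96), and Cxcr4 had Fnip2 and Rnf144b (0.94 each). Among the members themselves, Ppbp had r 0.94 with Cxcl2, 0.86 with Cxcl3, -0.87 with Cxcl16 and -0.86 with Cxcr4, while Cxcl10 and Cxcl14 had r 0.01.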

How the data were processed

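The counts per gene that the authors deposited are raw integer counts of QuantSeq 3′ reads for 50559 genes in 32 columns. Per the labels, reads were handled with Trimmomatic, FastQC, HISAT2, SAMtools, featureCounts and DESeq and mapped to mm39, whereas the methods of the study name mm10, and the difference was not tested. Of the columns, 27 matched a labelled library and 5 did not and were not used. Genes were taken by symbol.

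The 24 libraries of batch 1 were fitted in 1 model with a mean per group (edgeR 4.0.16 and limma 3.58.1 in R 4.3.3), with filterByExpr keeping 13614 genes, TMM scaling, the robust quasi-likelihood test and Benjamini-Hochberg adjustment over all tested genes at 0.05. The 14 comparisons were MPNST-CM against control medium, KO against WT and M2 against Mφ within each level of the other factors, and the genotype by medium interaction in Mφ and in M2. Values of the 3 batch 2 libraries come from scaling all 27 libraries together, and those libraries held 9997776 to 11152362 counts each. No adjusted p is given for a gene that passed the filter only through the higher group of a pair. The counts of genes past the threshold do include such genes, among them Ly6g and Ctsg. They also include Cxcl1, Cxcl3 and Cxcl9, which passed the filter through some of the groups only. The SE of a log2 difference is its absolute size divided by the square root of the quasi-likelihood F statistic. It draws on the spread over all 24 libraries and not on the compared groups alone. Ratios of means were given only where both groups summed to at least 10 counts. Likeness used log2 CPM with a prior count of 2. Promoters were searched on both strands for 8 motifs.

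The members and all gene lists were chosen with earlier results of these data known. Named genes are the 10 members, the genes that check the labels, the detected CXC ligands and receptors, and up to 4 genes of every other list, those past the threshold in at least 1 comparison with at least 10 CPM in a group mean, taken by the size of their log2 difference. Some genes of the lists are not reported here. Of marker lists the most abundant gene is named, and Treml1, Selp, Gp1ba, Nfe2, S100a9, Ly6g and the markers at or near 0, and Ctsg among the proteases, were named after their values were seen. Genes most like a member are the 5 highest by Pearson r for Ppbp and the 2 highest for the others.

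Alternatives tried were DESeq2 1.42.0, median-of-ratios scaling, no filter on low counts, a replicate block, all 27 libraries together, each library left out in turn, a prior count of 0.5 for likeness and, chosen after seeing the data, the 5 libraries numbered 1 of the groups in which they stood apart left out together. The procedure was tested on simulated data.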

Additional observations from a re-analysis of the deposited data

Results flagged for a closer look

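With batch 2 added, 3 groups hold 4 libraries, and each of the 10 genes was examined in each of them, 30 in all. In 10 of these the highest or lowest library stood far from the others by Dixon's criterion, which chance passes in about 1 of 20. The batch 2 library labelled KO M2 in control medium accounts for 6 of them. It held Ppbp at 144 CPM (others 0.589 to 1.22), Pf4 at 3398 CPM (350.5 to 419), Cxcl1 at 7.84 CPM (0 to 0.271), Cxcl2 at 299 CPM (1.31 to 6.23), Cxcl3 at 12.8 CPM (0.262 to 0.883) and Cxcr4 at 61.7 CPM (146 to 152). The batch 2 library labelled KO M2 in MPNST-CM held Ppbp at 0.933 CPM (390 to 443), Cxcl2 at 6.12 CPM (213 to 226) and Cxcl14 at 7.57 CPM (0.449 to 0.756). Cxcl9 was at 0.262 CPM in library 2 of KO M2 in control medium and at 0 in the others, which is 2 counts, under the limit of 3, and with the others tied at 0 any count would stand apart in this way. Batch and sample identity cannot be told apart for these libraries.

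Each of the 10 genes was examined in Mφ and in M2. For 10 gene and state pairs, KO libraries were all on one side of WT libraries in control medium and all on the other side in MPNST-CM. The share of all tested genes that swap sides in this way was not counted, so nothing is read from that number. The difference was not tested in data apart from those that chose the members. All 10 pass the threshold in the fit over all genes (19.7% of all genes in Mφ, 20.2% in M2), from which nothing is read, since pairs that swap sides between media largely fix an interaction other than 0. The fitted log2 interaction was 4.92 for Ppbp in Mφ (5.92 without KO library 2 in control medium) and 2.50 in M2, 2.74 for Pf4 in Mφ, 2.59 for Cxcl2 in Mφ and 3.07 in M2, and 3.72 for Cxcl3 in M2. With all 27 libraries in 1 fit the M2 values were -3.35 for Ppbp, -1.57 for Cxcl2 and 0.46 for Cxcl3. In batch 1 it was -4.67 for Cxcl10 in Mφ, -3.50 for Cxcl14 in M2, -0.84 for Cxcl16 in Mφ and -1.73 for Cxcr4 in Mφ. The Cxcl14 value ran from -3.68 to -1.21 over the alternatives tried, which include all 27 libraries in 1 fit.

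Among the other named genes, the genotype by medium interaction passed the test for the following, given as log2 values. In Mφ it was -0.89 for Mmp12, 0.65 for Rgs1, -0.85 for Rgs2, -0.71 for Rgs10, 0.87 for Irf7, 2.86 for Fos, -1.52 for Tnfaip3, 1.2 for Zfp36l1, 3.72 for Thbs1, -0.79 for Sdc1, 1.00 for Srgn, 1.29 for Cd44 and 1.04 for Mrc1. In M2 it was -1.22 for Cxcr3, 0.85 for Mmp9, -1.46 for Mmp12, -0.62 for Adam17, 0.72 for Rgs1, -0.81 for Rgs2, -0.69 for Rgs10, 2.66 for Irf7, 1.48 for Fos, 1.43 for Zfp36l1, 2.72 for Thbs1, -1.73 for Sdc1, 0.62 for Cd44, -0.67 for Retnla and 0.74 for Mrc1. With all 27 libraries the M2 values of Irf7, Thbs1 and Retnla were -0.91, -3.74 and 2.22. Tnfaip3 in Mφ lost its call without library 1 of WT in control medium, 2 or 3 of WT in MPNST-CM or 1 of KO in MPNST-CM, with adjusted p from 0.0537 to 0.0756. Retnla in M2 lost its call without library 3 of KO in MPNST-CM (adjusted p = 0.0523).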

How the results depend on the processing

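For the members, all 140 log2 values stayed within the spread between replicates under DESeq2, median-of-ratios scaling, no filter on low counts and the replicate block. Values near 0 changed sign within that spread: the Cxcl16 interaction in M2 (0.03) was -0.05 with no filter and -0.01 with the block, and with the block Cxcl9 for KO against WT in M2 in MPNST-CM went from -0.0086 to 0.03 and Cxcl1 for M2 against Mφ in WT in control medium from -0.13 to 0.10. Leaving out 1 library moved 19 of 960 values by more than that spread, and leaving out the 5 libraries numbered 1, an alternative chosen after seeing the data, moved 2 of 140. For the other named genes, of 434 values, 5 became weaker and 4 stronger under DESeq2, 12 and 8 with no filter, 5 and 4 with the block, and 3 and 24 without the 5 libraries. Leaving out 1 library made 113 weaker and 25 stronger of 2976. With the 5 libraries left out, genes past the threshold for KO against WT in M2 in control medium went from 2236 to 3664. With no filter the share of higher calls moved from 45.8 to 57.2% for MPNST-CM in WT M2, from 50.5 to 38.5% for KO against WT in M2 in MPNST-CM, from 47.7 to 61.5% for M2 against Mφ in WT in MPNST-CM and from 46.3 to 36.2% for the interaction in M2. With a prior count of 0.5, the genes that left the closest ones were Trem1 (r 0.95), 1810037I17Rik (0.83), Crem (0.94), Tbc1d8 (0.72), Cmah (0.91) and Galnt9 (0.93), and another gene took the second place for Pf4, Cxcl1, Cxcl3, Cxcl10 and Cxcl14 and the first for Cxcl9. Among those that stayed, r went from 0.80 to 0.74 for Saa3 with Cxcl9 and from 0.89 to 0.86 for Man2a1 with Cxcl1.

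Adding batch 2 changed most, and the cause was not tested. With all 27 libraries in 1 fit, genes past the threshold for MPNST-CM against control medium went from 2889 to 957 in WT Mφ, from 4477 to 2647 in KO Mφ, from 3331 to 1014 in WT M2 and from 5017 to 823 in KO M2. For KO against WT they went from 2259 to 854 in Mφ and from 2236 to 1137 in M2 in control medium, and from 5207 to 3096 in Mφ and from 4627 to 1681 in M2 in MPNST-CM. For M2 against Mφ they went from 3391 to 1206 in WT in MPNST-CM, from 3883 to 2216 in KO in control medium and from 1522 to 475 in KO in MPNST-CM. The interaction went from 2685 to 653 in Mφ and from 2750 to 180 in M2. Of the members' values 40 moved by more than the spread between replicates, and 6 that pass the threshold in batch 1 reversed their sign, and of the other named genes' values 146 became weaker, 1 stronger and 10 reversed.

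The reversed log2 values, with batch 1 alone and then with all 27 libraries, were as follows. For KO against WT in M2 in control medium they were -2.21 and 3.16 for Ppbp, -1.62 and 2.56 for Cxcl2, and -0.01 and 5.98 for Thbs1. For KO against WT in M2 in MPNST-CM they were -0.48 and 0.16 for Sdc1, -0.49 and 1.97 for Retnla, and 0.31 and -0.070 for Mrc1. For M2 against Mφ in KO they were -1.30 and 2.92 for Cxcl2 and -0.39 and 5.64 for Thbs1 in control medium, and 0.42 and -0.0053 for Thbs1 in MPNST-CM. Rgs1 with MPNST-CM in KO M2 had 0.40 and -0.17. For the interaction in M2 they were 2.50 and -3.35 for Ppbp, 0.82 and -1.19 for Pf4, 3.07 and -1.57 for Cxcl2, 2.66 and -0.91 for Irf7, 2.72 and -3.74 for Thbs1, and -0.67 and 2.22 for Retnla. Other members' values changed sign too, counted above as moved: for KO against WT in M2, Cxcl3 in control medium (-1.80 and 0.99) and Ppbp in MPNST-CM (0.28 and -0.19), for M2 against Mφ in KO in control medium Ppbp (-0.91 and 4.49), and Cxcl1 in each of KO against WT in M2 and M2 against Mφ in KO in control medium and the interaction in M2. Near 0, Cxcl1 and Cxcl9 for M2 against Mφ in WT in control medium and Cxcl9 for KO against WT in M2 in MPNST-CM changed sign within the spread.

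Depth limits Cxcl1, Cxcl3 and Cxcl9 and the low groups of Ppbp and Cxcl14, where 3 counts correspond to 0.323 to 0.450 CPM and a few counts set the size of a ratio.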

Other observations

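Summed over each library, the 10 genes took 0.134% of counts in WT Mφ and 0.0955% in KO Mφ in control medium, and 0.483% and 1.21% in MPNST-CM. In M2 cells the shares were 0.0496% in WT and 0.0602% in KO in control medium, and 0.516% and 0.950% in MPNST-CM.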
